A study of Mus musculus with 20 samples.

Results

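AP-1 is a transcription factor built from pairs of leucine zipper proteins of the Fos and Jun families and their relatives. The 10 genes described here encode the Fos proteins (Fos, Fosb, Fosl1 and Fosl2), the Jun proteins (Jun, Junb and Jund) and the partners Atf3, Batf and Maff. They were chosen by name, through the RefSeq transcript that each array probe targets. They were read by 11 of the 55681 probes of each array and are 10 of the 20972 genes that the probes name. Of the 10 genes, 8 reached the signal limit for testing, as did 15102 genes in all, and Fosl1 and Batf did not.

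The arrays were made from brain RNA of 20 male mice on a C57BL/6J background, with 1 one-colour array per mouse and 5 mice in each of 4 groups. Tat- mice carried only the Tet-binding protein under the GFAP promoter, which is active in astrocytes, whereas Tat+ mice carried in addition an HIV-1 Tat transgene behind a tetracycline responsive element, so that Tat is made by astrocytes and is induced by doxycycline. All 20 mice, controls included, were given 100 mg/kg of doxycycline daily for 7 days. Over 7 days they also received daily either 2 mg/kg of methamphetamine (Meth, a psychostimulant that releases dopamine) or 0.9% saline (Sal), and the groups are written as Tat-/Sal and Tat-/Meth for mice without the transgene, and as Tat+/Sal and Tat+/Meth for mice with it. The labels describe mice of 6 to 7 weeks, the left hemisphere and collection 24 h after the last injection. The methods of the study instead describe older mice, dissected caudate putamen, and collection soon after a further Meth challenge that followed abstinence and was given to all groups, saline groups included. Which description holds for these arrays could not be settled here.

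Fos, Fosb, Junb and Atf3 are immediate early genes, which neurons switch on shortly after strong synaptic or dopamine receptor input and without first making new protein. The signal reaches their promoters in part through CREB, which binds the cAMP response element (CRE), and through serum response factor, which binds the CArG box. Fos proteins do not pair with themselves and bind DNA with a partner, most often a Jun protein, whereas Jun proteins can also pair among themselves. Psychostimulants are known to induce Fos and Fosb in the striatum, the dopamine-rich region that includes the caudate putamen.

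The promoters of Fos, Fosb, Fosl2, Junb, Atf3 and Jun are shown first, to let the CRE core be seen in those that hold it and compared with those that do not. They cover the 3 pairs that varied together and 2 of the 4 genes called with Meth in Tat- mice, and the stretches of Jund and Maff are described only. RefSeq promoter entries of GRCm38.p6 were matched for 9 of the 10 genes (11 entries), and each stretch is the 150 bases before the start site, written 5′ to 3′ in the direction of the gene. Capitals mark the CRE core, TGACG on either strand, which reads CGTCA where it lies on the opposite strand. The stretches are Fos at chr12:85473740-85473889 (plus strand), Fosb at chr7:19310046-19310195 (minus), Fosl2 at chr5:32136322-32136471 (plus), Junb at chr8:84978749-84978898 (minus), Atf3 at chr1:191183334-191183483 (minus) and Jun at chr4:95052223-95052372 (minus).
Fos: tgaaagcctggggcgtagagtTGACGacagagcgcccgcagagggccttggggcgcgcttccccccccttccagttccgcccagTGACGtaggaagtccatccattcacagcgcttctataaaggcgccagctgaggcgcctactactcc
Fosb: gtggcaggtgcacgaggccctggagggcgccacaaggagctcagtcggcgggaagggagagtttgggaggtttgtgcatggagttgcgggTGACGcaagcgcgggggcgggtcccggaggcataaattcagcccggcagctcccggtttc
Fosl2: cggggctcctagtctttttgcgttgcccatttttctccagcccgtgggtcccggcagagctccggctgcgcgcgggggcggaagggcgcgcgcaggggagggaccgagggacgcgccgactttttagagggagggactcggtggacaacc
Junb: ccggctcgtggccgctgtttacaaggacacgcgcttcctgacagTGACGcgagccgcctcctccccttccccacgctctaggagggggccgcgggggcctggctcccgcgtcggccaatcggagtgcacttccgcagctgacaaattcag
Atf3: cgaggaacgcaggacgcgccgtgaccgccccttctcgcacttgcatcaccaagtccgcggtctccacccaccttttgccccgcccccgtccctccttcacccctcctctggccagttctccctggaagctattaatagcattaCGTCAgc
Jun: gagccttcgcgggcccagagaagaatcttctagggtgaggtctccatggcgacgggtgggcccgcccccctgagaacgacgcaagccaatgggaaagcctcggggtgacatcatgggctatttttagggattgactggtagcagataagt

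In these 150 bases the CRE core occurred at 7 of the 11 entries, belonging to Fos, Fosb, Junb, Atf3, Batf and Maff, against 13.3% of 32851 RefSeq promoter entries of the same length. Fos held the core at 2 places, which began 129 and 66 bases before the start site. It began 60 bases before the start of Fosb, 106 before that of Junb and 7 before that of Atf3, there on the opposite strand. The Fosl2, Jun and Jund entries held none. The full CRE, TGACGTCA, which contains the core, was found at 1 of the 3 Maff start sites and at 1.36% of all entries. TATAAA, searched on the sense strand alone, was found 33 bases before the Fos start and at 4.84% of all entries. The AP-1 element itself, TGANTCA, and the CArG box were found at none of the 11 entries, against 4.24% and 0.916% of all. A match describes letters in this window, and no match says only that the letters are not there.

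**Figure D1:**
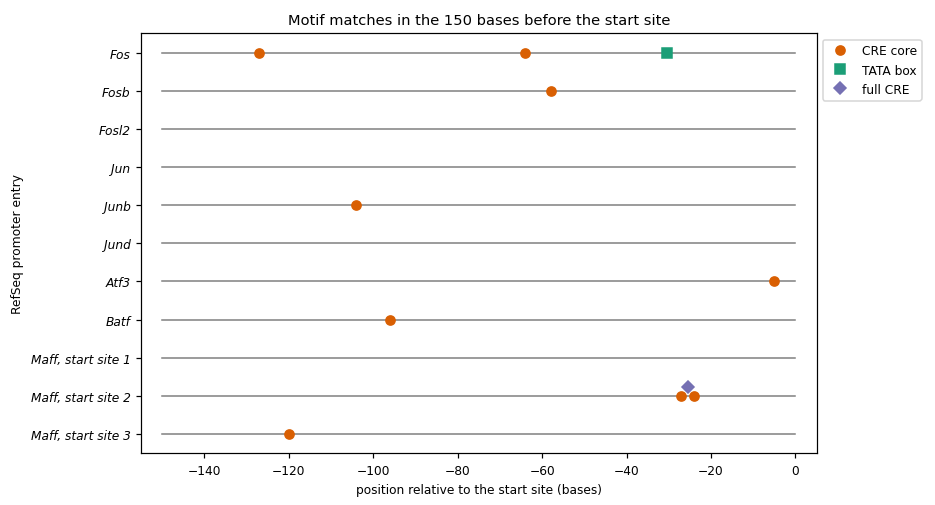
Positions of motif matches in the 150 bases before the start site of each of the 11 RefSeq promoter entries of 9 AP-1 genes (horizontal axis, bases from the start site). Points mark the middle of each match, in orange for the CRE core on either strand, green for the TATA box and violet for the full CRE. Fos carries 2 cores, at 129 and 66 bases before the start, whereas Fosl2, Jun and Jund carry none.

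Levels below are log2 processed signals after the 75th percentile of every array was set to a common value of 9.99, and differences are differences of these log2 levels. Before scaling, that percentile ranged from 9.64 to 10.3, and 55.4% to 70.9% of probes were well above background on an array. All 5 Tat-/Meth arrays lay on slide 1, which held no other group. The Tat+/Meth arrays were split, with 3 on slide 2 beside the 5 of Tat-/Sal and 2 on slide 3 beside the 5 of Tat+/Sal. The saline groups therefore shared no slide, and only Tat+/Meth arrays lay on both of theirs. On slide 1 the bright corner control spots were at 14.7 to 15.1 (log2, before scaling) against 16.8 to 17.4 on the other slides, so for every comparison with Tat-/Meth the slide and the group cannot be told apart. All 12 striatum markers were well above background on every array, and so were 9 of 12 cortex markers and 8 of 10 markers of thalamus, septum and choroid plexus. The summed level of 8 microglia markers was 16.87 to 17.00 (log2) in Tat-/Meth against 17.43 to 17.80 in the other groups, that of 8 astrocyte markers 16.65 to 16.90 against 16.36 to 16.62, and that of the striatum markers 20.26 to 20.33 against 20.39 to 20.69. None of these marker ranges of Tat-/Meth overlapped those of the other groups, and their part in the Tat-/Meth results was not tested. Sums of signal are carried by the brightest genes: among the microglia markers Itgam had a mean of 17.13 in Tat-/Sal and of 16.06 with Meth in Tat- mice, whereas C1qa (11.99 and 12.35), C1qb (11.56 and 11.91) and Cx3cr1 (13.02 and 13.22) had higher means there, and the means of Tmem119 were 11.30 and 11.29. Only those 3 of the 8 microglia markers were higher with Meth in Tat- mice, and the median difference was -0.03. By limma 2 of the 8 were higher and 2 lower at an adjusted p under 0.05. In tissue RNA, fewer cells of a type and less RNA per cell cannot be told apart.

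Fos encodes the founding Fos protein, and its RNA is a standard sign of recent neuronal activity. The Fos probe was printed on 10 spots of each array, of which 7 to 10 could be used, and the SD between spots of an array was 0.02 to 0.06 (log2), far below the SD of 0.33 between arrays of a group. Fos stood at 10.51, 11.52, 10.49, 11.19 and 10.78 in Tat-/Sal and at 11.02, 10.79, 10.32, 10.21 and 10.40 in Tat+/Sal. It stood at 11.11, 11.03, 11.37, 10.93 and 11.08 in Tat-/Meth and at 11.21, 10.76, 11.46, 11.40 and 11.51 in Tat+/Meth. The Tat-/Sal arrays were the most spread and included the highest Fos level of all 20 arrays, while 4 of the 5 Tat+/Meth mice exceeded all Tat+/Sal mice. The difference between Tat+/Meth and Tat+/Sal was 0.72 ± 0.20 (log2, SE), or 1.65-fold, and did not pass limma with Benjamini-Hochberg adjustment (adjusted p = 0.219). On slide 3, where both groups were present, it was 0.91 ± 0.26 (adjusted p = 0.845, 2 against 5 arrays). In Tat- mice the difference with Meth was 0.21 ± 0.20 (adjusted p = 0.399), and the interaction of Tat and Meth was 0.51 ± 0.28 (adjusted p = 0.161).

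Fosb encodes a Fos protein whose shortened, stable form accumulates with repeated drug exposure. Its level was 11.16, 11.61, 11.04, 11.38 and 11.63 in Tat-/Sal, and 11.42, 11.61, 11.54, 11.02 and 11.60 in Tat+/Sal. In Tat-/Meth it was 11.22, 11.65, 11.55, 11.53 and 11.31, and in Tat+/Meth 11.60, 11.54, 11.91, 11.89 and 12.04. The Tat+/Meth group held the 3 highest Fosb levels of the study, and its other 2 arrays lay within the range of the remaining groups. Between the Meth-treated groups, Fosb was higher with Tat by 0.34 ± 0.14 (1.27-fold, adjusted p = 0.0436), a call that held in 12 of the 20 fits that each left out 1 array. It was lost under median scaling (difference 0.18, adjusted p = 0.47) and normexp background correction (adjusted p = 0.077). It was also lost with the authors' value table (adjusted p = 0.0653), no signal limit (0.0648) and the methods' t-test with adjustment (0.0521). Without scaling of the arrays, the Fosb difference between the Meth-treated groups was larger, at 0.68 against 0.34. The Fosb difference between Tat+/Meth and Tat+/Sal was 0.36 ± 0.14 (adjusted p = 0.313), and between Tat-/Meth and Tat-/Sal 0.09 ± 0.14 (adjusted p = 0.612).

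Fosl2 encodes Fra-2, a slower member of the family. Its brighter probe read 11.59, 12.00, 11.01, 11.99 and 12.01 in Tat-/Sal, 11.57, 11.67, 11.86, 11.81 and 11.69 in Tat-/Meth, 11.55, 11.74, 11.68, 11.01 and 11.52 in Tat+/Sal, and 11.37, 10.99, 11.78, 11.99 and 11.67 in Tat+/Meth. The groups overlapped throughout, with 1 low array near 11 in each group except Tat-/Meth. All 5 pairwise differences of this brighter Fosl2 probe lay between -0.22 and 0.06. A second, dim Fosl2 probe (group means 5.90 to 6.38, well above background on 18 of 20 arrays) held a single high value, 7.85, in Tat-/Meth. The 5 pairwise differences of this dim probe lay between -0.23 and 0.48, each with an SE of 0.39. Whether it followed the brighter probe was not tested. Fosl1, which encodes Fra-1 and is little used by resting neurons, was well above background on 6 of 20 arrays. Those were 3 Tat-/Sal, 1 Tat-/Meth and 2 Tat+/Meth arrays and no Tat+/Sal array, with group means between 4.50 and 5.07, so no fold was taken.

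The Jun proteins are the main partners of the Fos proteins. Jun, the founding member, showed no difference between groups: its means were 12.41 ± 0.31 (SD, n = 5) in Tat-/Sal, 12.42 ± 0.34 in Tat-/Meth, 12.30 ± 0.46 in Tat+/Sal and 12.32 ± 0.31 in Tat+/Meth. With Meth, Jun differed by 0.01 in Tat- mice (95% interval -0.44 to 0.46) and by 0.01 in Tat+ mice (-0.44 to 0.46), so that changes within these intervals could not be detected with 5 arrays a group.

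Junb, a Jun protein that restrains the activity of Jun, had the smallest adjusted p by limma of the tested members with Meth in Tat- mice. Its level was 8.17, 8.90, 8.31, 8.38 and 8.17 in Tat-/Sal and 9.20, 9.32, 9.16, 9.03 and 9.15 in Tat-/Meth. In Tat+/Sal it was 8.83, 8.57, 7.89, 9.17 and 8.38, and in Tat+/Meth 8.56, 8.45, 8.46, 8.78 and 8.85. Each Tat-/Meth mouse exceeded all Tat-/Sal and all Tat+/Meth mice, whereas 1 Tat+/Sal array reached into the Tat-/Meth range. With Meth in Tat- mice Junb was higher by 0.79 ± 0.18 (1.72-fold, adjusted p = 0.00155), and it was lower with Tat among Meth-treated mice (-0.55 ± 0.18, adjusted p = 0.0152). Both Junb calls held in all 20 fits that each left out 1 array. With Meth in Tat+ mice Junb differed by 0.05 ± 0.18 (adjusted p = 0.942), and the interaction was -0.74 ± 0.26 (adjusted p = 0.0316), which held in 13 of those 20 fits. All 3 called Junb values involve the slide 1 arrays.

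Jund, the Jun protein that most cells make at rest, had group means of 14.84 ± 0.20 in Tat-/Sal, 15.12 ± 0.09 in Tat-/Meth, 15.11 ± 0.18 in Tat+/Sal and 14.98 ± 0.20 in Tat+/Meth, with overlap between all groups. With Meth in Tat- mice it was higher by 0.28 ± 0.11 (adjusted p = 0.0348), where the median difference of all tested genes was 0.14, and the Jund interaction was -0.41 ± 0.15 (adjusted p = 0.0412). These calls held in 12 and 5 of the 20 fits that each left out 1 array, and both were lost under median scaling (adjusted p = 0.0828 and 0.0735), normexp background correction (0.0505 and 0.0506) and no signal limit (0.0513 and 0.0619). Without scaling of the arrays the first of these values reversed to -0.14 and the second to 0.07. Over the 20 arrays, the deviation of Jund from its group mean followed that of the summed striatum markers (Pearson r = 0.85, permutation p = 9e-05, and Spearman rho = 0.87, p = 2e-05, with adjusted p = 0.0072 and 0.0016 over 80 relations of members with array measures). The r was 0.77 without the 2 arrays farthest from the median, and the part of striatum marker level in the Jund calls was not tested.

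Atf3, a stress- and activity-induced CREB family protein that pairs with Jun proteins, had the largest differences with Meth among the members tested. Atf3 stood at 7.86, 8.74, 7.43, 8.55 and 7.60 in Tat-/Sal and at 8.53, 9.38, 9.10, 8.69 and 9.41 in Tat-/Meth. It stood at 8.52, 8.41, 7.57, 7.75 and 8.43 in Tat+/Sal and at 9.06, 8.68, 9.21, 9.82 and 9.55 in Tat+/Meth. In Tat+ mice the 2 treatments did not overlap, and in Tat- mice 3 of the 5 given Meth exceeded all 5 given saline. With Meth in Tat- mice Atf3 was higher by 0.99 ± 0.28 (1.98-fold, adjusted p = 0.00679), in all 20 fits that left out 1 array. In Tat+ mice the difference was 1.13 ± 0.28 (2.19-fold) and did not pass (adjusted p = 0.218, with a smallest adjusted p of any gene of 0.143 in that comparison), and on slide 3 alone it was 1.55 ± 0.35 (adjusted p = 0.84). The interaction of Tat and Meth on Atf3 was 0.14 ± 0.39 (adjusted p = 0.805, 95% interval -0.68 to 0.97).

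Maff, a small Maf protein without an activation domain that pairs with Fos and with Nrf factors, had a level of 7.28, 7.33, 7.74, 7.13 and 7.16 in Tat-/Sal and of 7.91, 7.73, 8.24, 8.08 and 7.31 in Tat-/Meth. In Tat+/Sal its level was 7.32, 7.45, 8.04, 7.55 and 7.05, and in Tat+/Meth 8.39, 7.69, 7.50, 7.78 and 7.41. All groups overlapped, although 3 of the 5 Tat-/Meth mice exceeded all Tat-/Sal mice. With Meth in Tat- mice Maff was higher by 0.53 ± 0.20 (1.44-fold, adjusted p = 0.0394), which held in 13 of the 20 fits that left out 1 array. It was lost under quantile normalization (adjusted p = 0.0958), median scaling (0.0558), no signal limit (0.0579) and the methods' t-test with adjustment (0.0542). In Tat+ mice the difference was 0.27 ± 0.20 (adjusted p = 0.608). Batf, best known from lymphocytes, was well above background on 13 of 20 arrays at group means of 5.01 to 5.71, and its 10 spots differed by a median SD of 0.26 within an array, so that it too was only described.

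**Figure D2:**
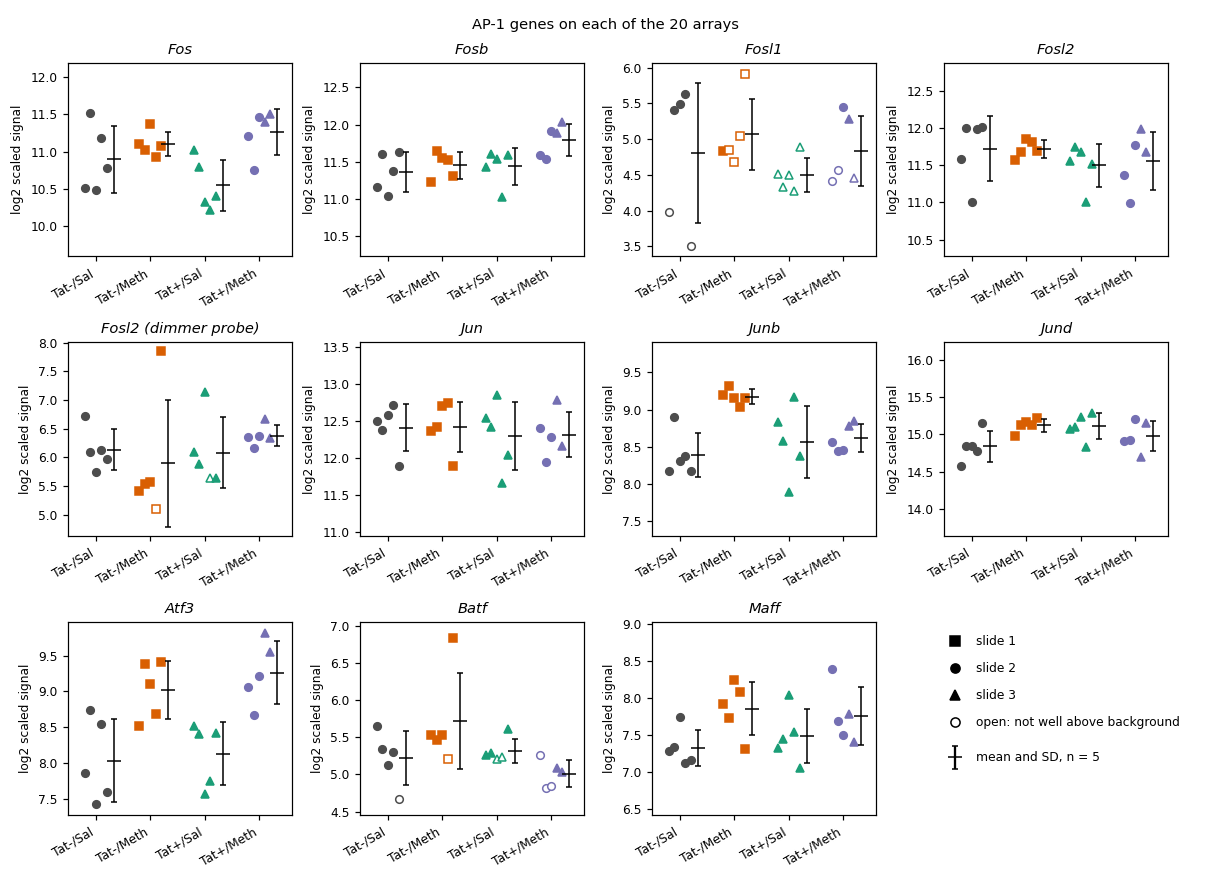
Level of each of the 11 AP-1 probes on each of the 20 arrays (vertical axis, log2 scaled signal) in the 4 groups. Symbols give the slide, open symbols mark spots not well above background, and bars give the mean and SD of 5 arrays. The 5 Junb values of Tat-/Meth lie above all Tat-/Sal and Tat+/Meth values, and the 5 Atf3 values of Tat+/Meth lie above all Tat+/Sal values.

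Counted over the 8 tested members, the effect of Meth in Tat- mice (Tat-/Meth against Tat-/Sal) gave 4 genes at an adjusted p under 0.05, Atf3, Junb, Maff and Jund, all of which rose. In the same fit 50.2% of all tested genes passed, in either direction, so a count of 4 in 8 stood near the background. None of the 8 also passed a 2-fold limit, against 6.85% of all genes, and 1 member, Junb, had groups that did not overlap, against 36.2%. The median difference of the members was 0.24 and that of all tested genes 0.14. The balance of rising and falling genes here rested on the scaling: 69.6% of the genes with an adjusted p under 0.05 were higher, but 1.72% were without scaling, which moved the median of all genes by -0.43. Without scaling the values were 0.57 for Atf3, 0.37 for Junb, 0.10 for Maff and -0.14 for Jund, and none passed.

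The effect of Meth in Tat+ mice (Tat+/Meth against Tat+/Sal) gave 0 of 8 members at an adjusted p under 0.05 by limma, as it gave 0.0% of all genes. At an unadjusted p under 0.05 there were 3, Fos, Fosb and Atf3, all higher, against 12.2% of all genes in either direction. The methods' t-test also put these 3 under 0.05 before adjustment and 0 after it. The Atf3 groups did not overlap, as was so for 2.28% of all genes, and the median difference was 0.17 over the members and 0.00 over all genes.

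The effect of Tat in Meth-treated mice (Tat+/Meth against Tat-/Meth) gave 1 member that rose, Fosb, and 1 that fell, Junb, at an adjusted p under 0.05, where 54.4% of all genes passed. The Junb groups did not overlap, as was so for 38.0% of all genes. The effect of Tat in saline-treated mice (Tat+/Sal against Tat-/Sal) gave 0 of 8 members by limma, against 1.42% of all genes. In that comparison 1 member was under an unadjusted p of 0.05, against 20.5% of all genes, namely Jund at 0.27 ± 0.11 (adjusted p = 0.167), and the methods' t-test adjusted over all genes did not call it either (adjusted p = 0.279). The combination of Tat and Meth (Tat+/Meth against Tat-/Sal) gave 0 of 8 by limma, against 0.0% of all genes, and 2 at an unadjusted p under 0.05, against 7.79%. These were Atf3 at 1.23 ± 0.28 (adjusted p = 0.63) and Fosb at 0.43 ± 0.14 (adjusted p = 0.64), and the methods' t-test also put both under 0.05 before adjustment and 0 after it. On slide 2, which held arrays of both groups, the Atf3 value was 0.95 ± 0.30 and the Fosb value 0.32 ± 0.15. The interaction gave 2 members at an adjusted p under 0.05, both lower, Junb and Jund, against 36.0% of all genes in either direction. With the 2-fold limit added, 0 of 8 members passed in the other 5 comparisons too, against 0.0% of all genes for Meth in Tat+ mice, 7.22% for Tat in Meth-treated mice, 0.0199% for Tat in saline-treated mice, 0.0% for the combination and 7.44% for the interaction. No member separated the groups without overlap for Tat in saline-treated mice or for the combination, as 4.85% and 1.68% of all genes did. Several of these comparisons share arrays, so they are not independent of each other. The p-values here set each group difference against the spread between mice of the same group, and the number of arrays limits their precision. That spread holds no difference between slide 1 and the other slides.

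The mean of the effects of Meth in Tat- and Tat+ mice was added after the values were seen. In it Atf3 was higher by 1.06 ± 0.20 (2.08-fold, adjusted p = 0.000541), Fos by 0.46 ± 0.14 (1.38-fold, adjusted p = 0.0159), Junb by 0.42 ± 0.13 (adjusted p = 0.0175) and Maff by 0.40 ± 0.14 (adjusted p = 0.0394). Those 4 of 8 stood beside 34.3% of all genes that passed in either direction, and Atf3 passed the 2-fold limit as well, as did 1.82% of all genes. The Atf3, Fos and Junb calls held in all 20 fits that left out 1 array and the Maff call in 6 of them, but the 2-fold call of Atf3 was lost without Tat-/Sal 3 (0.98), Tat+/Meth 4 (0.99) or Tat+/Sal 3 (0.99). Without scaling only Atf3 kept an adjusted p under 0.05 (0.88, adjusted p = 0.00734), then below 2-fold, and median scaling lost Fos (adjusted p = 0.0806), Junb (0.117) and Maff (0.204), the last of which quantile normalization lost as well (0.13). This mean includes the slide 1 arrays. For Junb it joins unlike effects, 0.79 in Tat- mice and 0.05 in Tat+ mice, whose interaction was called (limma adjusted p = 0.0316).

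**Figure D3:**
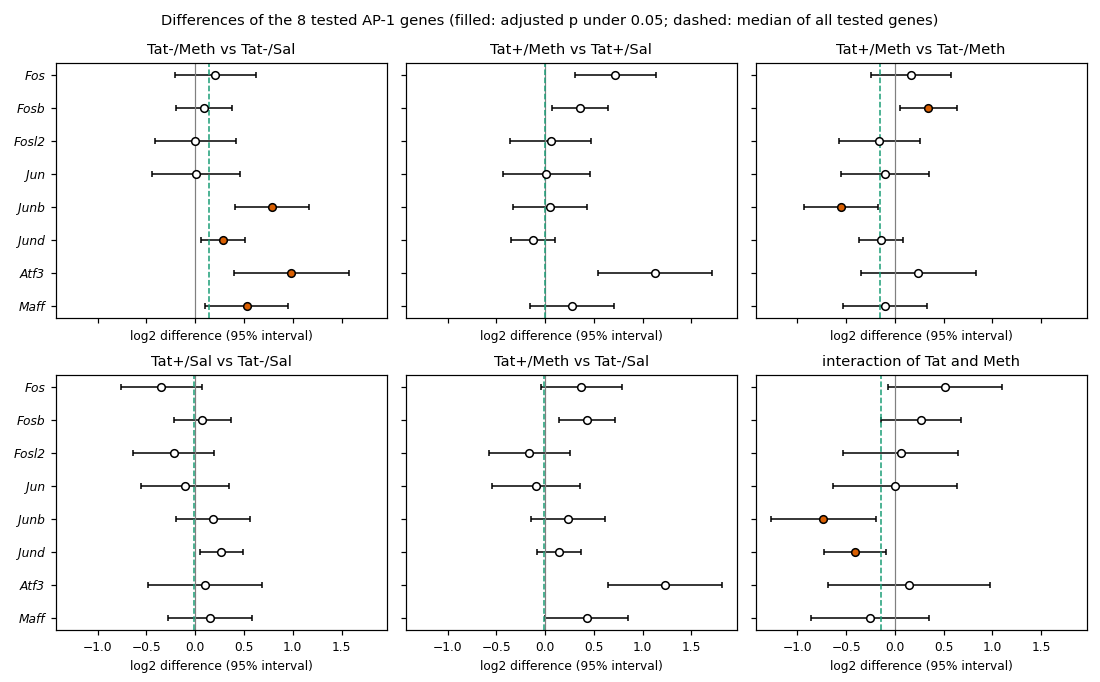
Differences of the 8 tested AP-1 genes in each comparison (horizontal axis, log2 difference with its 95% interval from limma). Filled points passed an adjusted p under 0.05, and the dashed line is the median of all 15102 tested genes. Atf3 lies at 0.99, 1.13 and 1.23 in the 3 comparisons of Meth with saline mice, and Junb is the member farthest below 0 in the interaction.

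Because each group held 5 arrays, correlations were computed over the 20 deviations of the arrays from their group means, so that group differences did not enter. Among the 28 pairs of the 8 tested members, 9 had a permutation p under 0.05 and 3 an adjusted p under 0.05 by Pearson's r, of which 2 also did by Spearman's rho. Fos and Atf3 varied together with r = 0.77 (permutation p = 0.00122, adjusted p = 0.0171) and rho = 0.73 (permutation p = 0.00275, adjusted p = 0.0385). Fosb and Fosl2 varied together with r = 0.83 (permutation p = 0.00016, adjusted p = 0.00448) and rho = 0.74 (permutation p = 0.00168, adjusted p = 0.0385). Fos and Fosl2 had r = 0.69 (permutation p = 0.00521, adjusted p = 0.0486) and rho = 0.62 (permutation p = 0.016, adjusted p = 0.112). Without the 2 arrays farthest from the median these r were 0.70, 0.75 and 0.74. Thus mice with more Fos RNA than others of their group also had more Atf3 RNA, and mice with more Fosb RNA had a higher signal at the brighter Fosl2 probe.

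With means taken per group and slide, r was 0.75 for Fos with Atf3 (adjusted p = 0.0298) and 0.67 for Fos with Fosl2 (adjusted p = 0.102). Fos with Atf3 had an adjusted p of 0.0536 without the second Tat-/Sal array, the one with the highest Fos, and 0.0791 without the second Tat+/Meth array, the lowest of its group, with r of 0.71 and 0.73. The Fos with Fosl2 value held in 6 of 20 such fits and used the brighter Fosl2 probe, since with the mean of both probes r was 0.29. Fosb with Fosl2 also used the brighter probe, and with the mean over probes Fos with Atf3 was the 1 pair left under an adjusted p of 0.05.

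The partners of Fos in the dimer did not share this covariation in a way these arrays could resolve. The r of Fos was 0.27 with Jun (permutation p = 0.292, adjusted p = 0.486), 0.44 with Junb (permutation p = 0.113, adjusted p = 0.287) and 0.16 with Jund (permutation p = 0.576, adjusted p = 0.662). For Junb the rank correlation was higher (rho = 0.58, permutation p = 0.0232, adjusted p = 0.13), and r was 0.76 (adjusted p = 0.0084) without the fourth Tat+/Sal array, where Junb was highest and Fos lowest of the group. Jun had r = 0.52 with Maff (permutation p = 0.0344, adjusted p = 0.116), and Atf3 ran against Maff with r = -0.50 (permutation p = 0.0324, adjusted p = 0.116), neither of which passed the adjustment.

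**Figure D4:**
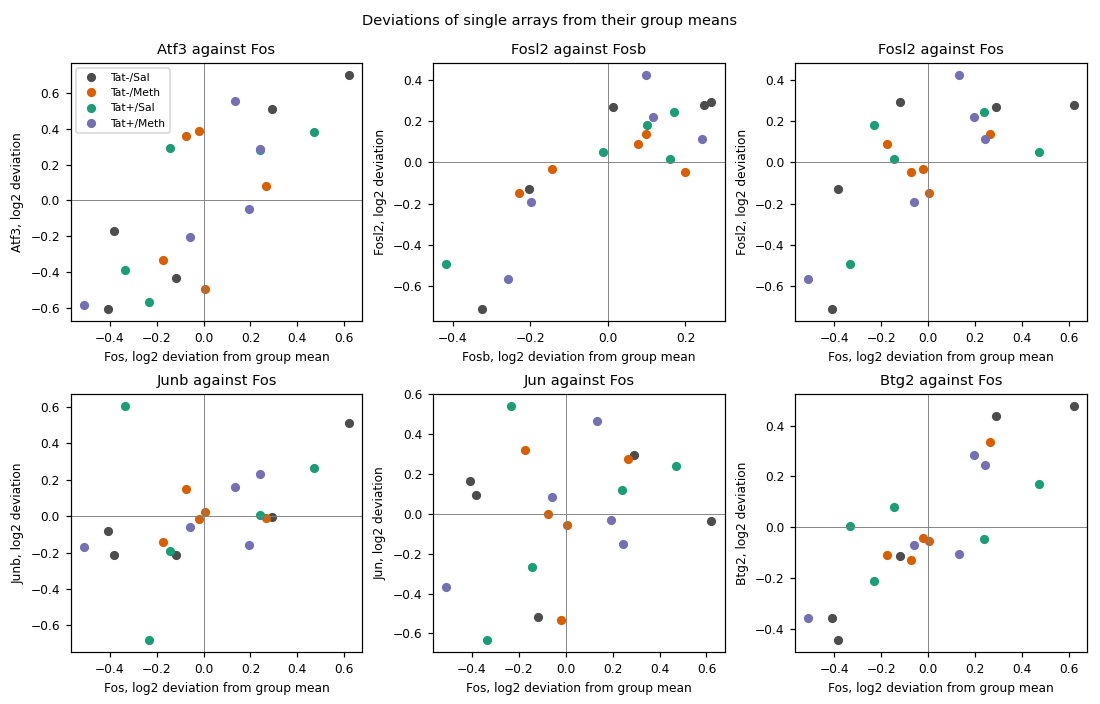
Deviations of the 20 arrays from their group means (both axes, log2), with points coloured by group. Atf3 against Fos (r = 0.77), Fosl2 against Fosb (r = 0.83), Fosl2 against Fos (r = 0.69) and Btg2 against Fos (r = 0.85) rise together, whereas Jun against Fos (r = 0.27) is scattered and Junb against Fos (r = 0.44) has 1 Tat+/Sal array far off the rest.

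Across all tested genes, those closest to Fos by the same measure, given as a description, were Btg2 (r = 0.85, an antiproliferative early response gene), Arc (0.81, the synaptic activity gene), Akap12 (0.80, a scaffold of protein kinase A), Nhlrc2 (0.78), Egr2 (0.78, an early response zinc finger factor), Trim36 (0.77), Rab32 (0.77) and Map3k1 (0.77, a kinase upstream of JNK). In a list of 46 tested immediate early genes outside AP-1, 19 (41.3%) had r above 0.5 with Fos, against 2.22% of all tested genes, and 8 had r above 0.7, namely Btg2, Arc, Egr2, Nr4a1, Egr4, Ier5, Ccn1 and Dusp1. For Atf3 the count above 0.5 was 16 (34.8%, against 4.01%), for Fosl2 13 (28.3%, against 2.67%) and for Fosb 12 (26.1%, against 4.05%). It was 5 for Jun (10.9%, against 6.09%), 4 for Junb (8.7%, against 4.28%), 4 for Jund (8.7%, where 1958 of the 15102 genes did) and 0 for Maff (against 4.73%). Points of such correlations share an array, its labelling and its scale, and genes are not independent of one another.

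The genes nearest to the other members differed from those of Fos. Fosb and Fosl2 were both closest to Inhba, which encodes an activin subunit and is itself induced by activity (r = 0.91 and 0.86), followed for Fosb by Phlda1 (0.86) and Rap2a (0.86) and for Fosl2 by Shisa2 (0.81) and Baz1a (0.80). Atf3 was closest to Fbn1 (0.85), Qser1 (0.85) and Rreb1 (0.84), and Junb to Trmt10a (0.82), Ltn1 (0.80) and Slc39a10 (0.79). Jun was closest to Zkscan3 (0.92), Zc3h11a (0.89) and Dnajc3 (0.88), Jund to Zfp580 (0.94), Zfp523 (0.93) and C1qtnf4 (0.92), and Maff to Nsmf (0.87), Xdh (0.87) and Sntb2 (0.87). Jun and Jund had 199 and 466 genes with r above 0.7, against 26 for Fos, so that their nearest genes were drawn from large sets that moved together.

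One further measure moved with Fos. The deviation of the summed red blood cell markers, of which 4 of 6 had a probe and all 4 were well above background on every array, followed that of Fos (r = 0.71, permutation p = 0.0002, adjusted p = 0.008, and rho = 0.75, permutation p = 0.00013, adjusted p = 0.0052, over the same 80 relations; r = 0.71 without the 2 farthest arrays). Their summed level ranged from 15.50 to 16.28 for Tat-/Sal, from 15.76 to 17.37 for Tat-/Meth, from 15.68 to 16.71 for Tat+/Sal and from 15.01 to 16.36 for Tat+/Meth, ranges that overlapped. For Atf3 the r was 0.56 (permutation p = 0.0133, adjusted p = 0.266) and for Fosl2 0.54 (permutation p = 0.0132, adjusted p = 0.266). The part of blood in the Fos values was not tested.

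**Figure D5:**
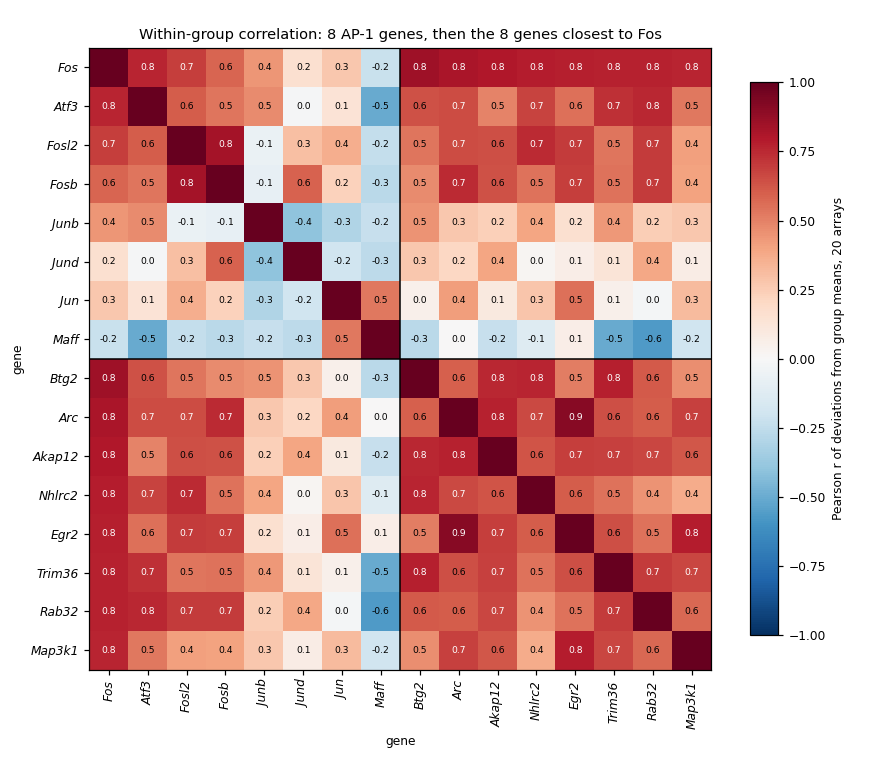
Pearson r over the deviations of 20 arrays from their group means (colour scale, -1 to 1), for the 8 tested AP-1 genes and the 8 genes closest to Fos, separated by black lines. Fos, Atf3, Fosl2 and Fosb form a block of positive values with the genes closest to Fos, whereas Jun and Jund are mixed and Maff is mostly below 0. The genes in the lower right were chosen for their r with Fos.

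Genes around AP-1 were read from lists. As for Meth in Tat- mice, the balance of rising and falling genes rested on the scaling in 2 further comparisons. Of all genes with an adjusted p under 0.05 by limma in Tat+/Meth against Tat-/Meth, 29.3% were higher, but 94.2% were without scaling. For the interaction these shares were 34.6% and 99.2%. Of 30 tested bZIP partners outside the members (CREB, ATF, C/EBP, Maf and Bach proteins and their relatives), 14 rose and 5 fell in Tat-/Meth against Tat-/Sal (46.7% and 16.7%, where 50.2% of all genes passed in either direction). The smallest p values were those of Creb5, a CREB family factor (-0.98 ± 0.10, adjusted p = 2.72e-07), and Bach2, a repressor (0.46 ± 0.07, adjusted p = 2.52e-05). Their Tat-/Sal means were 16.23 and 8.85, and the part of signal level in these calls was not tested. In Tat+/Meth against Tat-/Meth 5 rose and 16 fell, where 54.4% of all genes passed, with Creb5 at 0.93 ± 0.10 (adjusted p = 4.52e-07) and Nfe2l2, the oxidative stress factor Nrf2, at -0.65 ± 0.10 (adjusted p = 1.83e-05). In the interaction 4 were higher and 8 lower, where 36.0% of all genes passed, with Creb5 at 0.86 ± 0.14 (adjusted p = 0.000121) and Creb1, the gene of CREB itself, at 0.44 ± 0.09 (adjusted p = 0.00115). In the other 3 comparisons 0 of 30 passed by limma. At an unadjusted p under 0.05 there were 5 for Meth in Tat+ mice, 7 for Tat in saline-treated mice and 0 for the combination, where 12.2%, 20.5% and 7.79% of all genes were, and Nfil3, a bZIP repressor, had the smallest p of Meth in Tat+ mice (0.43 ± 0.13, adjusted p = 0.229).

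Of 37 tested kinases and factors upstream of AP-1, 4 rose and 5 fell in Tat-/Meth against Tat-/Sal (10.8% and 13.5%, below the 50.2% of all genes that passed), with Elk1, a partner of serum response factor, at -0.45 ± 0.07 (adjusted p = 1.82e-05) and Crtc1, a CREB coactivator, at -0.39 ± 0.07 (adjusted p = 0.000147). Both were bright, with Tat-/Sal means of 18.50 for Elk1 and 15.11 for Crtc1. In Tat+/Meth against Tat-/Meth 4 rose and 7 fell (of all genes 54.4% passed), with Crtc1 at 0.54 ± 0.07 (adjusted p = 3.26e-06) and Elk1 at 0.49 ± 0.07 (adjusted p = 5.33e-06). This list was the only one of the 4 with a call for Tat in saline-treated mice, where 2 of 37 rose (5.41%, where 1.42% of all genes passed in either direction). These were Mapk3, the kinase ERK1, at 0.34 ± 0.06 (adjusted p = 0.0185) and Map2k2, the kinase MEK2 that activates it, at 0.27 ± 0.06 (adjusted p = 0.0386). Of all genes, 116 were higher there at an adjusted p under 0.05 by limma, and 208 were under quantile normalization. Under median scaling and without scaling 0 genes were higher, so both rises were lost in those settings. The saline groups also lay on different slides. In the interaction 3 were higher and 5 lower (of all genes 36.0% passed), with Map2k2 at -0.49 ± 0.09 (adjusted p = 0.000228) and Mapk8, the Jun kinase JNK1, at -0.53 ± 0.10 (adjusted p = 0.000592). In the other comparisons 0 passed by limma, with 6 and 2 at an unadjusted p under 0.05 for Meth in Tat+ mice and for the combination, beside 12.2% and 7.79% of all genes.

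Of the 46 immediate early genes outside AP-1, 12 rose and 3 fell in Tat-/Meth against Tat-/Sal (26.1% and 6.52%, beside 50.2% of all genes), and 3 rose and 14 fell in Tat+/Meth against Tat-/Meth (beside 54.4%). Beyond 2-fold, Fbxo33, an F-box protein, rose (1.23 ± 0.10, adjusted p = 7.97e-09) and Bdnf, the neurotrophin, fell (-1.21 ± 0.19, adjusted p = 4.01e-05) in Tat-/Meth against Tat-/Sal. Their differences between Tat+/Meth and Tat-/Meth were -1.32 ± 0.10 (adjusted p = 2.81e-09) for Fbxo33 and 2.01-fold higher for Bdnf (adjusted p = 0.000215), which was well above background on 4 of the 5 Tat-/Meth arrays. In the interaction 3 were higher and 7 lower (beside 36.0% of all genes), with Bdnf at 1.57 ± 0.27 (adjusted p = 0.000179) and Fbxo33 at -1.21 ± 0.13 (adjusted p = 1.95e-06). In Tat+/Meth against Tat+/Sal 0 of the 46 passed by limma and 8 were under an unadjusted p of 0.05 (beside 12.2% of all genes), with Btg2 having the smallest p (0.49 ± 0.17, adjusted p = 0.26). In the remaining comparisons 0 passed, with 4 at an unadjusted p under 0.05 for Tat in saline-treated mice (20.5% of all genes) and 6 for the combination (7.79%).

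Of 23 tested genes listed as AP-1 targets, 4 rose and 5 fell in Tat-/Meth against Tat-/Sal (17.4% and 21.7%, beside 50.2% of all genes), and 5 rose and 5 fell in Tat+/Meth against Tat-/Meth (54.4%). In the interaction 3 were higher and 2 lower (36.0%). In the other 3 comparisons 0 of 23 passed by limma, with 2 at an unadjusted p under 0.05 for Meth in Tat+ mice (12.2% of all genes), 6 for Tat in saline-treated mice (20.5%) and 3 for the combination (7.79%). The smallest p values there were those of Ywhaz, a signalling adaptor, for Meth in Tat+ mice (-0.46 ± 0.15, adjusted p = 0.259) and of Cdk5, a neuronal kinase, for Tat in saline-treated mice (-0.20 ± 0.05, adjusted p = 0.0624) and for the combination (-0.13 ± 0.05, adjusted p = 0.64). The calls of these lists for Meth in Tat- mice, for Tat in Meth-treated mice and for the interaction all involve slide 1. They share the Tat-/Meth arrays.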

How the data were processed

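RNA of each of the 20 mice was hybridised to 1 one-colour (Cy3) Agilent array, per the file headers and labels, whereas the methods of the study describe another dye and platform. The deposited files hold spot intensity values from Agilent Feature Extraction, of which the background-subtracted processed signal was used, and the authors' deposited value table holds linear intensity not scaled between arrays. Spots flagged as outliers and control spots were left out, spots of a probe were averaged, and log2 values were shifted so that the 75th percentile of each array was 9.99 (log2). Probes were named through RefSeq accessions. A gene was read by its brightest probe and tested where a group mean reached 6 (log2), which left 15102 genes and left out Fosl1 and Batf.

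Group means were compared in 1 limma fit of all 4 groups with Benjamini-Hochberg adjustment over all tested genes, and a call needed an adjusted p under 0.05 and, where stated, a 2-fold change. Correlations used 100000 two-sided permutations of arrays within groups. The members and lists were chosen with earlier results of these data known. The text names all members, the 8 genes closest to Fos and the 3 closest to each other tested member, and, from each list, genes among up to 3 per comparison and direction beyond 2-fold or, with none, the 2 of smallest p, not all of which are printed. A gene that this rule selects is counted with its list but not reported here. Scaling, background correction (normexp with an offset of 50, on median foreground because no mean signal was used here), the value table, the signal limit, probe choice, slide, replicate number, the methods' t-test and each array left out were tried as alternatives. The scripts were tested on simulated data. R 4.3.3, limma 3.58.1, Python 3.11.15, numpy 2.4.6, pandas 2.3.3, scipy 1.17.1 and matplotlib 3.10.9 were used.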

Additional observations from a re-analysis of the deposited data

Results flagged for a closer look

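In 4 of 44 sets of 5 arrays (11 probes in 4 groups), 1 array stood apart from the rest of its group by Dixon's test, which chance gives in about 1 in 20 sets. The dim Fosl2 probe read 7.85 (log2) on the fifth Tat-/Meth array against 5.09 to 5.57 on the others. Batf read 6.84 on that same array against 5.20 to 5.53, and 5.61 on the fifth Tat+/Sal array against 5.20 to 5.29. Junb read 8.90 on the second Tat-/Sal array, which also had the highest Fos level, against 8.17 to 8.38. The effect of Meth differed between Tat+ and Tat- mice for Junb (-0.74, log2) and for Jund (-0.41), both in comparisons that include the slide 1 arrays.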

How the results depend on the processing

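With both limits 0 members were called in each comparison. For Meth in Tat- mice the count was 1, Atf3, with slide as a random block, median scaling or quantile normalization, 0 to 1 when 1 array was left out (1 without Tat-/Meth 1 or 4, or Tat-/Sal 2 or 4), and 4 without the fold limit. Without the fold limit it was 2 for Tat in Meth-treated mice and 2 for the interaction, and the authors' value table gave 1, Batf, for the interaction. The methods' t-test without adjustment gave 1, Atf3, for Tat+/Meth against Tat+/Sal and 1 against Tat-/Sal. Without scaling Jund reversed to -0.14 for Meth in Tat- mice and to 0.074 for the interaction, and Junb was -0.22 (adjusted p = 0.485) in Tat+/Meth against Tat-/Meth. The cause was not tested. Correlated pairs numbered 3, and 9 under median scaling, 9 without scaling, 1 with the mean over probes and 1 to 6 when 1 array was left out (1 without Tat-/Sal 2 or Tat+/Meth 2, 6 without Tat-/Sal 5). The r of Fos with Maff was -0.23, but 0.29 under median scaling and 0.032 without scaling. With replicate number as a block 5 pairs were correlated and no limma call on a member changed, and the samples share only a number (same-numbered arrays correlated at -0.18 to 0.35, and 7 of 20 arrays correlated best with their own number). Slide as a fixed block could not be fitted for comparisons with Tat-/Meth. Dim probes limit what can be said of Fosl1 and Batf.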
